A study of Bos taurus with 48 samples.

Results

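The genes described here are 5 genes of bovine blood that are linked to cytotoxic lymphocytes, followed across breed, day and calf. They are the granzymes GZMA (ENSBTAG00000021958) and GZMM (ENSBTAG00000002100), the killer cell receptor KIR2SL1 (ENSBTAG00000038288), and the cytokine receptor chains IL18RAP (ENSBTAG00000033748) and IL23R (ENSBTAG00000014983). They were taken by name, 5 of the 24616 genes counted, and all 5 were among the 12677 genes that passed the filter on low counts. They were chosen by their measured breed contrast, lower read counts in Jersey (J) than in Holstein-Friesian (H-F) calves, so their breed differences, and whether they passed a threshold in that contrast, are given as a description from which nothing is inferred. Changes between days and variation among calves of a breed were not what the genes were chosen for, although a choice on the level at 1 day can enter a day change, as for IL23R.

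Whole blood was drawn from bull calves 3 times around weaning, the end of milk feeding: before it at d -14, and after it at d 1 and again at d 8. The 8 H-F and 8 J calves were group housed, received vaccines on arrival, and were fed milk replacer and concentrate individually. Before weaning the H-F calves were offered a fixed amount of concentrate, raised after weaning, and the J calves an unlimited amount. The paper holds that the offer was in essence the same, since H-F calves never ate all of theirs. Milk was withdrawn step by step between the first and the second sampling, so d -14 preceded weaning in both breeds and no calf remained unweaned as a control for age. The H-F calves came from a single farm and were younger on arrival, whereas the J calves came from other farms. Breed, herd, age and concentrate allowance cannot be told apart. All values are for 15 calves (8 H-F, 7 J), since the study removed a J calf, which was identified as J calf 85.

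Cytotoxic lymphocytes, which are natural killer cells and CD8 T cells, kill infected cells by releasing granules filled with granzymes, which are serine proteases. Natural killer cells are held in check or set off by surface receptors such as those of the KIR family, and cytokines such as IL-18 and IL-23 raise the activity of these and of other lymphocytes. Receptors for IL-18 are not limited to lymphocytes and are also carried by neutrophils.

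The 45 libraries held between 28028834 and 39017662 counts on genes (median 33592771). Levels are given as CPM, counts scaled to a common library size after TMM normalization, which corrects for composition. Whole blood mixes many cell types, so fewer cells of a type and less RNA per cell cannot be told apart. Gene symbols were known only for genes that the study listed as differing between breeds. No T cell, CD8, CD4, gamma delta T cell or red cell marker could be matched to a symbol, and the cell type label of the members could be checked only against the genes given below.

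GZMA, which codes for granzyme A, had the most reads of the members, with a mean count of 692.6 per library. Its CPM ranged from 13.9 to 45.9 (median 27.4) in H-F and from 10.3 to 22.5 (median 18.7) in J calves at d -14. At d 1 they ranged from 15.8 to 34.7 (median 26.1) in H-F and from 9.44 to 18.2 (median 12.8) in J calves. At d 8 they ranged from 18.5 to 33.8 (median 23.2) in H-F and from 11.9 to 21.3 (median 14.7) in J calves. All 7 J calves lay below the H-F median on each day, and 2, 5 and 5 of them lay below every H-F calf at d -14, d 1 and d 8. The log2 difference of J from H-F calves was -0.70, -0.92 and -0.64 on the 3 days, with a standard error (SE) of 0.20 each time.

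GZMM, which codes for granzyme M, gave a mean count of 143.8 per library. H-F calves ranged from 3.37 to 6.72 CPM (median 5.75) at d -14, from 2.89 to 6.72 (median 5.23) at d 1 and from 3.34 to 8.53 (median 4.99) at d 8. J calves ranged from 1.82 to 5.17 CPM (median 3.48), from 2.06 to 5.51 (median 2.64) and from 2.03 to 5.08 (median 2.80) on the same days. H-F calf 48 was the lowest H-F calf and H-F calf 56 the highest on all 3 days, and J calf 13 was the lowest J calf on all 3. The groups overlapped on every day, and J calf 57 lay above the H-F median at d 1 and d 8. The log2 difference of J from H-F was -0.65, -0.70 and -0.76 (SE 0.23 on each day).

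KIR2SL1, a receptor of the killer cell immunoglobulin-like family, differed most between the breeds, and 6 of the 7 J calves lay below every H-F calf on each day. H-F calves ranged from 1.81 to 4.80 CPM (median 2.44) at d -14, from 1.47 to 4.60 (median 2.46) at d 1 and from 1.64 to 4.15 (median 2.29) at d 8. J calves ranged from 0.404 to 2.04 CPM (median 0.737), from 0.411 to 2.52 (median 0.757) and from 0.526 to 1.74 (median 0.661). The highest J value on every day was that of J calf 7, the only J calf within the H-F range, and the highest H-F value was that of H-F calf 48. The log2 difference was -1.64 (SE 0.34), -1.41 (SE 0.34) and -1.57 (SE 0.35), which is 3.11-fold, 2.66-fold and 2.97-fold lower in J calves. Without J calf 7 it was -1.98, -1.87 and -1.86. The KIR genes of cattle are a multigene family, and reads that match several copies equally were not counted, so this value is uncertain as a measure of a single locus.

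IL18RAP codes for the accessory chain of the IL-18 receptor. At d -14, H-F calves ranged from 5.52 to 14.7 CPM (median 7.30) and J calves from 2.81 to 6.35 (median 4.12). At d 1, H-F calves ranged from 5.24 to 23.7 CPM (median 10.3) and J calves from 3.39 to 9.91 (median 6.25). At d 8, H-F calves ranged from 5.73 to 19.0 CPM (median 12.4) and J calves from 2.66 to 7.89 (median 5.76). All 7 J calves lay below the H-F median on each day, while 5, 2 and 3 of them lay below every H-F calf. The log2 difference was -0.92 (SE 0.28), -0.85 (SE 0.27) and -1.06 (SE 0.27).

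IL23R codes for the chain of the IL-23 receptor that is specific to IL-23, and it was the member with the fewest reads, with a mean count of 25.02 per library. It passed the filter with exactly 8 libraries above 1 CPM before TMM normalization, of which 7 were from H-F calves, so its presence among the tested genes rested mostly on the group in which it was high. KIR2SL1 was above 1 CPM in 24 of 24 H-F but only 6 of 21 J libraries, so it too passed the filter only through the H-F calves. H-F calves ranged from 0.488 to 1.51 CPM (median 1.02) at d -14, from 0.501 to 1.17 (median 0.885) at d 1 and from 0.339 to 1.41 (median 0.716) at d 8. J calves ranged from 0.283 to 0.852 CPM (median 0.444), from 0.350 to 1.04 (median 0.659) and from 0.434 to 0.927 (median 0.542). The log2 difference shrank in size from -0.82 (SE 0.27) at d -14 to -0.48 (SE 0.26) and -0.31 (SE 0.27), and at d 8 none of the 7 J calves lay below every H-F calf.

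**Figure D1:**
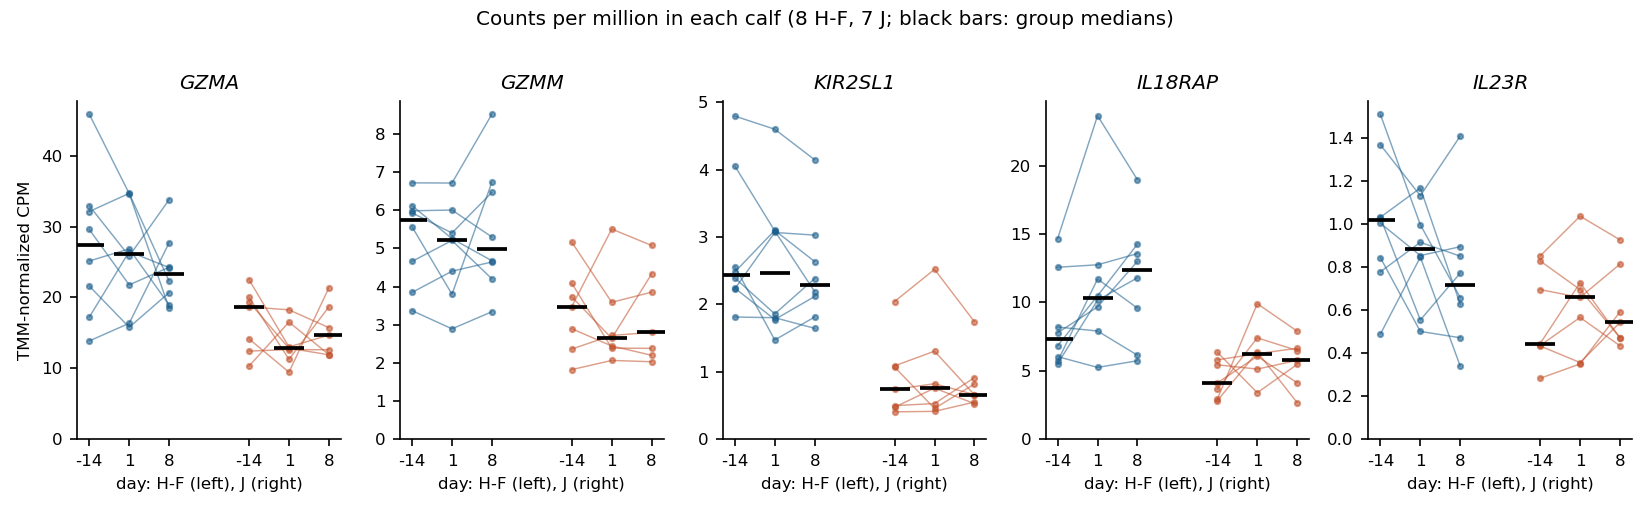
TMM-normalized CPM (vertical axis, from 0, scaled separately for each gene) of the 5 genes in each of 8 H-F calves (blue) and 7 J calves (orange) on the 3 days, with lines joining the samples of a calf and black bars at group medians. The J medians lie below the H-F medians in every panel and on every day, and J calf 7 is the single J line within the H-F range for KIR2SL1.

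A gene was called a differentially expressed gene (DEG) when it changed by 1.5-fold or more with an adjusted p below 0.1. Between the breeds, 4.1%, 3.73% and 3.13% of all genes tested were DEG at d -14, d 1 and d 8, and 2.52%, 1.84% and 1.93% were DEG that were lower in J calves. All 5 members were DEG at d -14 and 4 of 5 on the other days, IL23R being the exception, and nothing is read from these counts because the same contrast chose the genes. Nearest to the fold limit of 0.585 on the log2 scale were GZMA inside it at d 8 (-0.64) and IL23R outside it at d 1 (-0.48). Markers of other blood cells differed in the same contrast. A marker could be matched only if the study listed it for that contrast, so nothing about blood composition is inferred from the marker values that follow. At d -14 the 4 B cell markers CD79B, MS4A1, PAX5 and CD22 were DEG that were higher in J calves (log2 difference from 0.59 to 0.78), while the monocyte gene MSR1 (-1.20), the eosinophil gene SIGLEC8 (-0.69) and the platelet gene PF4 (-0.82) were DEG that were lower. MSR1, SIGLEC8 and PF4 were DEG on all 3 days and the B cell markers at d -14 only. The neutrophil gene CXCR2 was also lower in J calves. Its geometric mean CPM in H-F calves was 1.44, 1.24 and 1.51 times that in J calves at d -14, d 1 and d 8. On these days 6, 4 and 7 of the 7 J calves lay below its H-F median. The part of cell composition in the members' breed differences was not tested. No member separated the breeds completely on any day, whereas 0.671%, 0.434% and 0.505% of all genes were lower in every J than in every H-F calf at d -14, d 1 and d 8.

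The question of whether weaning moved these genes was tested within each breed. None of the 5 members was a DEG between any pair of days in H-F or in J calves by edgeR's quasi-likelihood test, and none at an unadjusted p under 0.05. Of all genes tested, 0.071% were DEG between d 8 and d -14 in H-F calves and 0.0% in each of the other 5 comparisons. When calf was added as a block, which uses the fact that each calf was sampled on every day, the share of all genes rose to 1.08% for H-F and 0.205% for J calves between d 8 and d -14, and to 0.252% and 0.0552% between d 1 and d -14. With the block 0 of 5 members were DEG in each of the 6 comparisons, and an unadjusted p under 0.05 was reached by 1 member in H-F calves at d 1, 2 in H-F calves at d 8 and 1 in J calves at d 1, where 13.8%, 25.4% and 8.76% of all genes did so.

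IL18RAP had the largest of these changes. Its log2 change from d -14 was 0.45 (SE 0.26) at d 1 and 0.47 (SE 0.26) at d 8 in H-F calves, and 0.52 (SE 0.28) and 0.33 (SE 0.28) in J calves. It was higher than at d -14 in 6 of 8 H-F calves on both later days, and in 5 of 7 J calves at d 1 and 4 of 7 at d 8. With the block, edgeR's test gave 0.40 (adjusted p = 0.319) and 0.45 (adjusted p = 0.121) in H-F calves, and 0.52 (adjusted p = 0.547) and 0.29 (adjusted p = 0.832) in J calves. The change of single calves reached from -0.89 in J calf 13 to 1.73 in J calf 9 at d 1.

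Averaged over both breeds, a comparison added after the data were seen, the change of IL18RAP at d 1 was 0.48 (SE 0.19, adjusted p = 0.69) without the block and 0.46 (SE 0.14, adjusted p = 0.0867) with it. The latter passed the limit on the adjusted p, as did 3.36% of all genes (10.9% at d 8), but the fold change of 1.38 missed the limit of 1.5. In this comparison 0 of 5 members were DEG with or without the block, beside 0.00789% and 0.197% of all genes at d 1 without and with it, and 0.245% and 0.607% at d 8. With each calf left out in turn, the change at d 1 ran from 0.366 to 0.569 with the block and from 0.371 to 0.587 without it. Without J calf 9 the value with the block was 0.37 (adjusted p = 0.247). Over the alternatives the adjusted p was below 0.0867 in some and above it in others. At d 8 the change with the block was 0.37 (SE 0.14, adjusted p = 0.103). CXCR2, the chemokine receptor that draws neutrophils into tissue, moved by similar amounts in these libraries, with 0.42 (SE 0.15, adjusted p = 0.13) at d 1 and 0.31 (SE 0.15, adjusted p = 0.212) at d 8 with the block. The part of neutrophil numbers in the IL18RAP values was not tested. Among the markers the smallest p in H-F calves was that of the B cell gene MS4A1, which rose in 8 of 8 on both later days. Its adjusted p was 0.00216 at d 1 and 3.37e-05 at d 8 by edgeR's test with the block, at less than 1.5-fold. In J calves MS4A1 rose in 3 of 7 at d 1 and 5 of 7 at d 8.

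GZMA, GZMM and KIR2SL1 changed less. With calf as a block and both breeds averaged, GZMA was 0.19 lower at d 1 (log2 change -0.19, SE 0.13) and -0.12 (SE 0.13) at d 8, and intervals of 2 SE on either side ran from -0.46 to 0.07 and from -0.39 to 0.14. For GZMM the changes were -0.12 (SE 0.09) and -0.02 (SE 0.09), with intervals from -0.31 to 0.06 and from -0.20 to 0.17. For KIR2SL1 they were -0.03 (SE 0.12) and -0.12 (SE 0.12), with intervals from -0.27 to 0.21 and from -0.36 to 0.13. For the average of both breeds, a comparison added after the data were seen, these intervals leave out a change of 1.5-fold in either direction for all 3 genes. This is not shown within each breed. There the GZMA change varied from calf to calf, with a mean of -0.303 (SD 0.55, 7 calves) in J calves at d 1. In H-F calves at d 8 it was -0.133 (SD 0.69, 8 calves).

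IL23R was the member whose day change differed most between the breeds. In H-F calves its log2 change at d 8 was -0.42 (SE 0.25), lower in 6 of 8 calves, and in J calves it was 0.09 (SE 0.28), higher in 5 of 7. The difference between these changes was 0.51 (SE 0.38, adjusted p = 0.999) without the block and 0.55 (SE 0.27, unadjusted p = 0.0519, adjusted p = 0.668) with it, by edgeR's test. IL23R was listed by the study only at d -14, so part of this pattern was fixed by the choice of genes. None of the 5 members showed an interaction of breed and day at an adjusted p under 0.1 for any pair of days, as for 0.0% of all genes without the block and 0.0158% with it between d 8 and d -14. None reached an unadjusted p under 0.05 either, which between d 8 and d -14 was reached by 1.39% of all genes without the block and 7.4% with it.

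**Figure D2:**
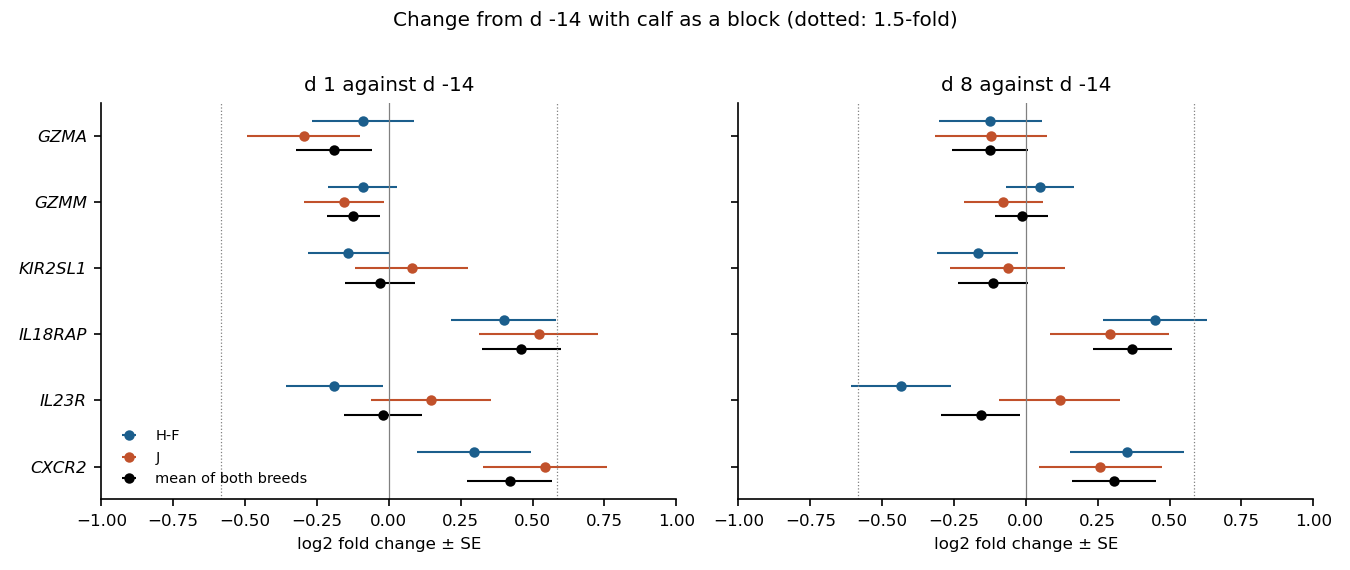
Log2 fold change from d -14 (horizontal axis, points with SE bars) at d 1 and at d 8 for the 5 genes and CXCR2, in H-F calves (blue), in J calves (orange) and as the mean of both breeds (black), from the edgeR fit with calf as a block. IL18RAP and CXCR2 lie to the right of 0 in all groups on both days, and all points lie inside the dotted lines at a 1.5-fold change.

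How much of a member's variation was a stable property of the calf differed widely between members. After breed and day means were removed, 70.7% of the variance of log2 CPM of KIR2SL1 (51.1% without J calf 7) and 66.2% of that of GZMM lay between calves, above the median of 42.6% over all genes tested. At the other end, only 6.6% lay between calves for GZMA, a share lower than that of all but 5.2% of genes. IL18RAP and IL23R were in the middle, with 41.5% and 50.4%. The share of IL18RAP fell to 20.1% without H-F calf 33, and that of GZMA ran from 1.2% without H-F calf 20 to 12.5% without J calf 13.

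The low share of GZMA came with a large spread within calves. Its SD within a calf was 0.389 on the log2 scale, against a median of 0.126 for 3991 genes with a mean count within 2-fold of its own, and counting error made up 1.98% of that variance. H-F calf 49 shows this, since it had the highest GZMA of all calves at d -14 (45.9 CPM) and the lowest among H-F calves at d 8 (18.5 CPM), a log2 change of -1.31. For IL23R the position was the reverse, as 71.4% of its variance within calves was of the size that counting error gives, so day-to-day changes of single calves could hardly be read at this depth. The corresponding shares were 30.4% for KIR2SL1, 22.2% for GZMM and 4.52% for IL18RAP.

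For IL18RAP the estimated share of variance between calves differed between the breeds. Computed in each breed alone, 69.5% of its variance lay between H-F calves and 0.0% between J calves, and the difference was not tested. Averaged over the days, H-F calf 33 had the highest value of IL18RAP (19.1 CPM) and H-F calf 56 the lowest (5.67 CPM) among H-F calves, a ratio of 3.37, whereas J calves ran from 3.95 to 6.91 CPM. For KIR2SL1 the wider range was in J calves, from 0.455 CPM in J calf 60 to 2.10 in J calf 7, a ratio of 4.62.

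**Figure D3:**
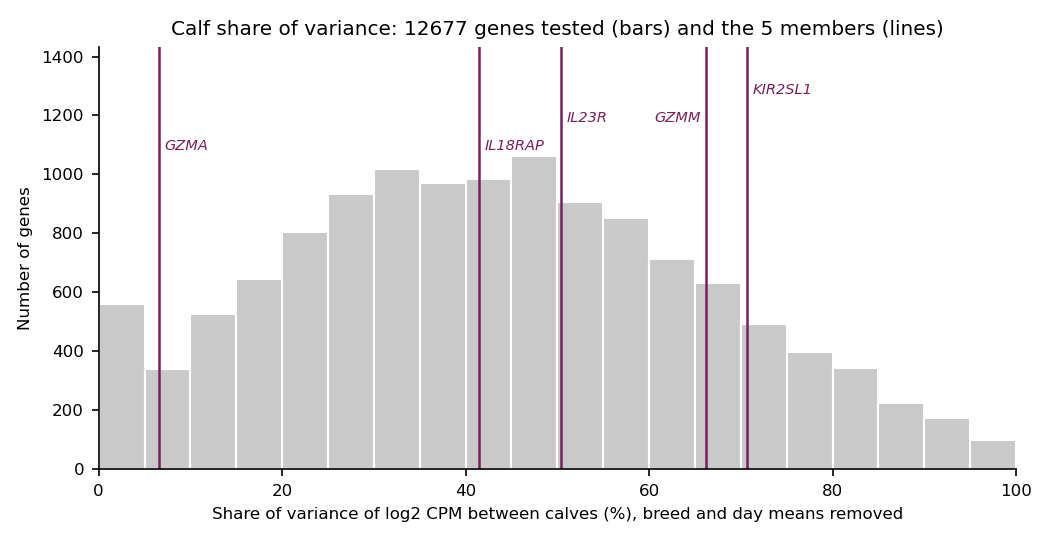
Number of genes (grey bars, 12677 genes tested) by the share of the variance of log2 CPM that lies between calves, in percent, after breed and day means were removed, with lines at the 5 members. GZMA lies at the low end at 6.6%, and GZMM and KIR2SL1 lie in the upper part at 66.2% and 70.7%.

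Whether the members rise and fall together from calf to calf was examined on the mean log2 CPM of each calf over the 3 days, with the breed mean removed so that the breed contrast could not create a relation. Most of these relations were weak. Pearson's r over the 10 pairs ranged from -0.276 to 0.538, with a median of 0.084. In H-F calves alone the median was 0.012 and in J calves alone it was 0.109, and only 2 of the 10 pairs were positive in both breeds. By permutation of calves within breed, 0 of 10 pairs passed an adjusted p of 0.05, the smallest adjusted p was 0.424, and 1 pair had an unadjusted p under 0.05. The granzymes themselves had r = -0.106 (permutation p = 0.705, adjusted p = 0.888) and rho = 0.057 (permutation p = 0.863, adjusted p = 1).

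The pair with the highest value was IL18RAP with IL23R, the 2 cytokine receptor chains. Over 15 calves r was 0.538 (permutation p = 0.0424, adjusted p = 0.424) and rho was 0.643 (permutation p = 0.0175, adjusted p = 0.175), and r was 0.591 without the 2 calves farthest from the median of IL18RAP. It was 0.574 in the 8 H-F and 0.551 in the 7 J calves (exact permutation p = 0.133 and 0.205). On single days r went from 0.035 before weaning to 0.306 and 0.64 on the later days, and over the libraries of the same calf it was -0.018.

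The same measure was high in other groups of blood genes from these libraries. The 4 B cell markers CD79B, MS4A1, PAX5 and CD22 had a median r of 0.874 over 6 pairs, and the platelet genes PF4, PPBP and GP9 had 0.746 over 3 pairs. In contrast, 9 further genes of cytotoxic lymphocytes had a median r of 0.126 over 36 pairs (from -0.552 to 0.771), close to that of the members. These 9 were picked by function and not as markers of a single cell type. They include BACH2, which restrains effector lymphocytes, so their median is not like for like with that of the B cell and platelet genes. All of these genes have symbols because the study listed them for the breed contrast. Their read counts differed widely from those of the members. In H-F calves at d -14 the median count was 8233 for CD22, 89 for GP9 and 33 for IL23R. The part of read counts in these values of r was not tested.

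The 9 further genes came from lists of cytotoxic granule genes (1 of 17 matched), natural killer receptors and adaptors (5 of 29), homing receptors and chemokines (2 of 14), transcription factors (1 of 14) and the IL-18, IL-12 and IL-23 pathway (0 of 22). Those that were DEG between breeds on all 3 days were NKG2A, an inhibitory receptor of natural killer cells, the chemokine CCL5, and BACH2, a transcription factor that restrains effector lymphocytes. Their log2 differences of J from H-F at d -14 were -1.12 (SE 0.31), -1.13 (SE 0.20) and 0.74 (SE 0.17). The activating receptor NCR1 and the lectin-like receptor KLRB1 were DEG on 2 of the days, with -0.66 (SE 0.19) and -0.73 (SE 0.21) at d -14. GZMB (granzyme B), the sphingosine receptor S1PR5, the Fc receptor FCGR3A and the signalling adaptor SH2D1B were DEG on 1 day, with -0.43, -0.53, -0.62 and -0.60 at d -14. Since all 9 were matched only through the study's own lists, this count is no evidence on the pathway. Between days, 0 of the 9 were DEG in either breed with or without the block.

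GZMA had the highest single r with a natural killer receptor, though not over all 5 of the listed ones. Its r with NCR1 over 15 calves was 0.746 (permutation p = 0.00336, adjusted p = 0.16 over 95 pairs of a member with a listed gene), rho was 0.757 (permutation p = 0.00315, adjusted p = 0.155), and r was 0.626 without the 2 calves farthest from the GZMA median. It was 0.866 in H-F calves (n = 8, exact permutation p = 0.00417) and 0.41 in J calves. From the first to the last day r was 0.80, 0.507 and -0.125, so the relation did not hold at d 8. With NKG2A GZMA had r = 0.63 (permutation p = 0.0128, adjusted p = 0.406), and with SH2D1B, FCGR3A and KLRB1 r was 0.372, 0.253 and -0.031. With all 4 B cell markers its r was negative, with a median of -0.49, and none of these pairs passed the adjusted threshold.

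Among the listed genes KIR2SL1 was also highest with a natural killer receptor, with r = 0.573 for NKG2A (permutation p = 0.0311, adjusted p = 0.625). For SH2D1B, KLRB1, NCR1 and FCGR3A r was 0.512, 0.419, 0.404 and 0.062, and for GZMA it was 0.206. GZMM had no r above 0.306 with any of the 9 cytotoxic genes, and its lowest was -0.484 with CCL5 (permutation p = 0.0609, adjusted p = 0.625). IL23R lay between -0.218 and 0.35 with these genes. CCL5 had r between 0.236 and 0.35 with the members other than GZMM.

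IL18RAP had its highest r among the listed genes with a neutrophil gene. Its r with CXCR2 was 0.807 over 15 calves (permutation p = 0.00064, adjusted p = 0.0608 over the 95 pairs), the smallest p of all pairs, with rho = 0.714 (permutation p = 0.00666, adjusted p = 0.211). Without the 2 calves farthest from the IL18RAP median r was 0.703, and without H-F calf 33, which had the highest IL18RAP, it was 0.688 (adjusted p = 0.123). In H-F calves r was 0.865 (n = 8, exact permutation p = 0.00332) and in J calves 0.688 (n = 7, exact permutation p = 0.0881). The relation was seen on each day, with 0.834, 0.769 and 0.801 in order of sampling. Among the libraries of the same calf, with calf means removed, r was 0.786. Its next highest r was 0.582 with KLRB1 (permutation p = 0.0354, adjusted p = 0.625). None of the 95 pairs passed an adjusted p of 0.05, and 6 had an unadjusted p under 0.05.

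The members' nearest genes were sought among all genes tested. The 10 genes with the highest r with the mean of the 5 standardised members (r from 0.771 to 0.806 over 15 calves) have no symbol in the tables used. Of the 3 genes nearest to each member, those with a symbol were IDO1, an enzyme that degrades tryptophan, for GZMA (r = 0.808), GADD45G, a stress response gene, for GZMM (r = 0.706), OLFM1 for KIR2SL1 (r = 0.742) and GPR77, the second receptor for complement C5a, for IL18RAP (r = 0.903). IL23R had none. The highest of so many values is large by construction, and these are given without a test.

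Other genes with a symbol near IL18RAP, chosen after their values were seen, were C5AR1, the main receptor for complement C5a (r = 0.809), P2RY12, a purine receptor (r = 0.844), PTPRR, a tyrosine phosphatase (r = 0.771), CRISPLD2 (r = 0.769) and IL1B, the cytokine interleukin 1 beta (r = 0.752). P2RY12 averaged 49.9 CPM in H-F calf 33 and 15.2 in the next H-F calf, and its r was 0.634 without the 2 calves farthest from the IL18RAP median. For PTPRR r was only 0.085 at d -14, 0.357 in J calves and 0.122 among the libraries of the same calf. For GPR77 r was 0.95 in H-F and 0.871 in J calves, lay between 0.838 and 0.861 on the 3 days, and was 0.803 among the libraries of the same calf. For C5AR1 it was 0.831 and 0.761 in the 2 breeds and 0.855 within calves, and for IL1B it was 0.728, 0.866 and 0.78. The remaining members went with CXCR2 at r between -0.473 for GZMA and 0.258 for IL23R. The name cytotoxic lymphocyte genes therefore stands here for the known roles of the 5 genes, since the correlations between them gave no pattern common to all 5.

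**Figure D4:**
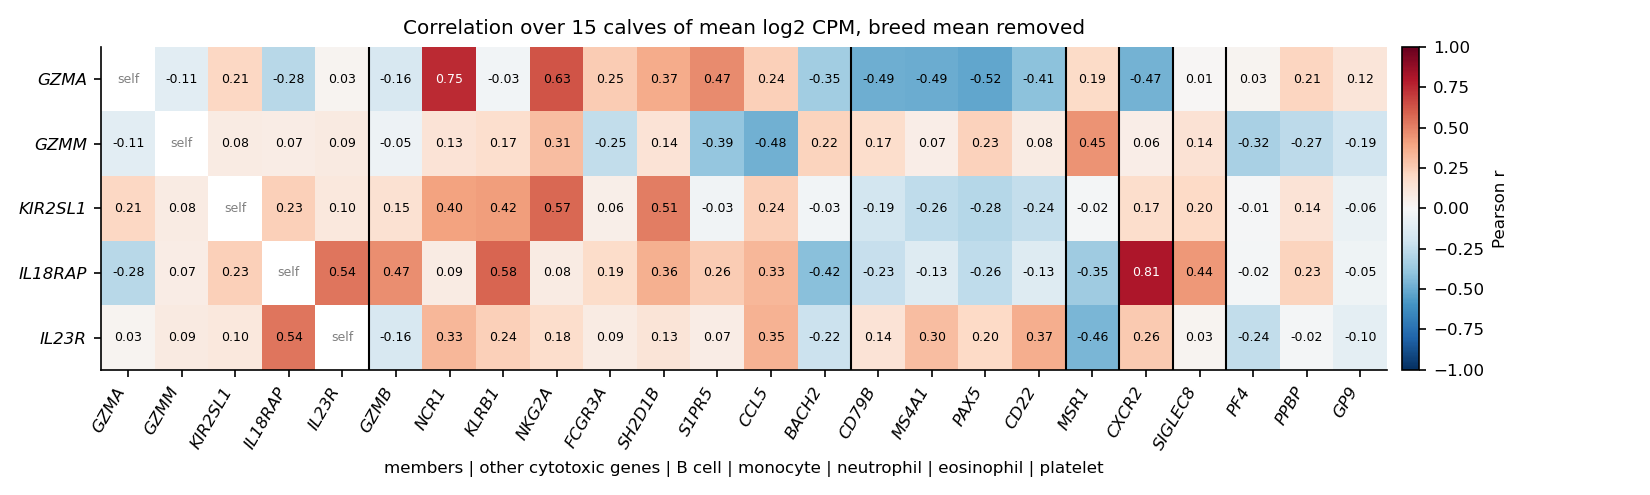
Pearson's r over 15 calves (colour and printed value, blue negative and red positive) of mean log2 CPM over the 3 days with the breed mean removed, for the 5 members (rows) with each other, with 9 other cytotoxic lymphocyte genes and with markers of other blood cells (columns, lists split by lines). The block of members at the left is pale apart from IL18RAP with IL23R, and the strongest single values are IL18RAP with CXCR2 and GZMA with NCR1.

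**Figure D5:**
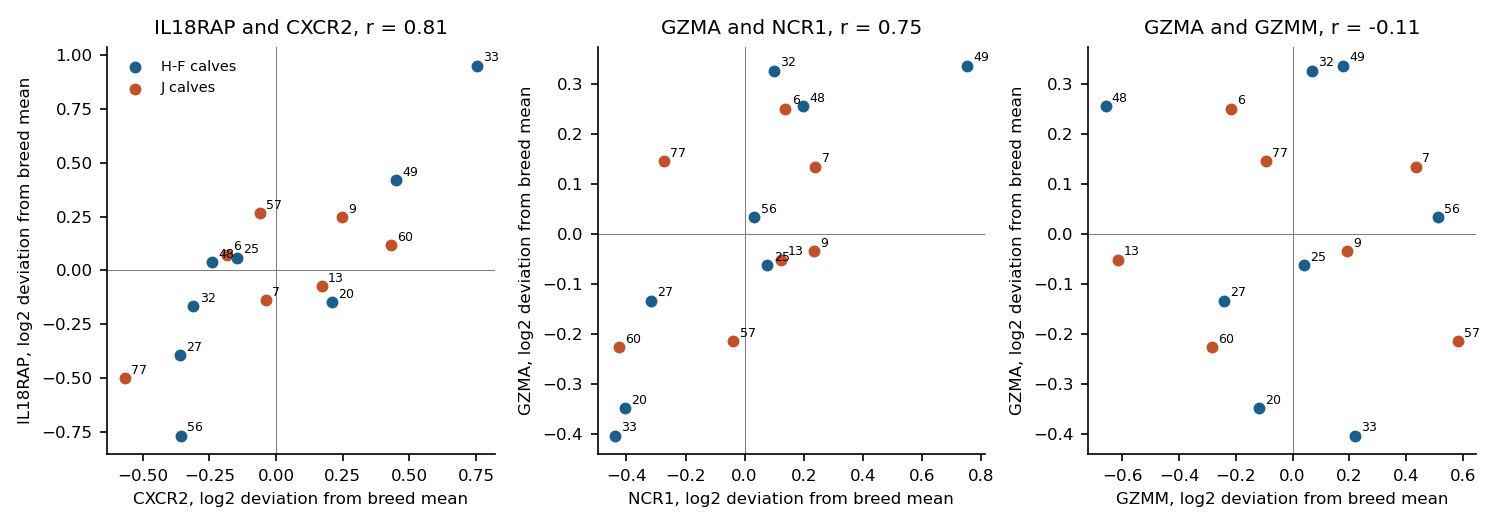
Each point is a calf (numbered, H-F blue, J orange), placed by the deviation of its mean log2 CPM over the 3 days from the breed mean for each gene of a pair. IL18RAP rises with CXCR2 (r = 0.807) with H-F calf 33 at the upper end, GZMA rises with NCR1 (r = 0.746), and GZMA shows no such slope with GZMM (r = -0.106).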

How the data were processed

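The authors aligned paired end reads of whole blood RNA to UMD3.1 with STAR, kept uniquely mapped reads, and made gene totals with HTSeq-count for Ensembl identifiers. The deposited values are these raw counts. Sources used here do not give the versions of STAR and HTSeq or the strand setting. All 48 columns were matched to a calf and day, 92 spike-in rows were left out, and J calf 85 was left out as the calf whose omission brought mean log2 CPM closest to the study's tables (root mean square difference 0.00304, next 0.051).

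Genes above 1 CPM in at least 8 libraries were tested with edgeR's quasi-likelihood test (edgeR 4.0.16, R 4.3.3), TMM factors, a mean for each breed and day, and Benjamini-Hochberg adjustment over all genes. Log2 CPM used a prior count of 2. Correlations used 100000 shuffles of calves within breed, two-sided, or exact permutation within a breed, in Python 3.11.15 with scipy 1.17.1. The scripts were tested on simulated data. Calf numbers pair the libraries, as same-calf libraries are of the same animal (correlations 0.40 to 0.85, different calves -0.58 to 0.30).

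The members and lists were chosen with earlier results of these data known. All members are named, with listed cytotoxic genes that were DEG between breeds and the 3 genes nearest to each member by r. Symbols came from the study's tables (701 of 800 identifiers). Their fold changes and p-values were not used. A listed marker is not reported here and was taken out of the correlation families after they had been computed with it, which lowered the adjusted p-values slightly. Alternatives were DESeq2 1.42.0, edgeR's exact test, voom in limma 3.58.1, RLE (DESeq2 type) size factors, other filters and thresholds, all 16 calves, each calf left out, and calf as a block. The planned count of the pathway lists between breeds and the search of promoters for motifs were not run, since the lists were matched only through genes of that contrast and no sequences were used here.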

Additional observations from a re-analysis of the deposited data

Results flagged for a closer look

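In 30 groups of a member, breed and day, 4 highest values lay further from the rest of their group than Dixon's 95% limit allows, where chance flags about 1.5. KIR2SL1 of J calf 7 was flagged on each day, with 2.04 CPM at d -14 (next J calf 1.09), 2.52 at d 1 (next 1.305) and 1.74 at d 8 (next 0.912). These are 3 samples of the same calf and not independent of each other. IL18RAP of H-F calf 33 was flagged at d 1 with 23.7 CPM, the next H-F calf being at 12.8.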

How the results depend on the processing

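The number of members that were DEG between days, or that showed an interaction, was 0 in 490 of 492 alternative fits, and between 0 and 0 when each calf was left out. The exceptions, both chosen after the data were seen, were IL18RAP in J calves at d 1 against d -14 with all 16 calves and calf as replicate block (1 member, log2 change 0.66, adjusted p = 0.0936), and IL18RAP in both breeds at d 1 with the replicate block and no fold limit (1 member). In the other comparisons the block left the count at 0. All 318 breed differences of single members under the alternatives were below 0. The genes were chosen for that sign in the same contrast, so nothing is inferred from this count. The median breed difference over members ranged, with each calf left out, from -0.94 to -0.71 at d -14, from -0.94 to -0.68 at d 1 and from -0.997 to -0.64 at d 8. IL23R did not pass the filter without H-F calves 25, 27 or 49 or without J calf 9.

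The median r of the member pairs was between 0.012 and 0.17 in all 25 alternatives, with 0 pairs past the threshold in each. IL18RAP with CXCR2 kept r between 0.688 and 0.865, and passed the adjusted threshold at d -14 alone (adjusted p = 0.0133, permutation) and without J calf 13 (0.0446) or J calf 57 (0.037). It passed in no other setting, where its adjusted p reached up to 0.899 (permutation). Without H-F calf 49 the smallest adjusted p of all 95 pairs was 0.291 (permutation), for GZMA with CXCR2. GZMA with NCR1 passed the adjusted threshold narrowly at d -14 alone (r = 0.80, adjusted p = 0.0489, permutation), a call that was not made in the larger family used at first, and turned to -0.125 at d 8 alone. The median calf share of variance was 69.5% in H-F calves alone and between 44.6% and 54.9% with each calf left out. The cause of these shifts was not tested. With 7 or 8 calves a breed, relations within a breed are imprecise, and IL23R and KIR2SL1 are limited by counts.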

Other observations

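The values of J calf 85, which the study removed, are given as a description only. Its CPM used TMM normalization over all 16 calves, whereas the CPM of the other calves used normalization over 15 calves. Of its 15 values, 13 lay within the range of the other 7 J calves and 9 lay below every H-F calf. These values come from the same calf on repeated days and are not independent of each other. No share over all genes is set beside these counts, and nothing is inferred from them. All 3 values of KIR2SL1 (1.03, 1.22 and 1.07 CPM at d -14, d 1 and d 8) and of GZMM (2.66, 2.77 and 1.55 CPM) were below every H-F calf. IL18RAP went the other way at d 1, with 10.3 CPM, above all other J calves and above 4 of 8 H-F calves, after 3.39 CPM at d -14. IL23R of this calf was within the H-F range on all 3 days, and GZMA was within it at d -14 alone.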
